A study of Homo sapiens with 12 samples.

Results

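The duplication of centrioles was followed here through 9 genes of the pathway: PLK4, STIL, SASS6, CENPJ, CEP152, CEP192, NEK2, PCNT and CDK5RAP2. They were taken by symbol, by a rule that uses no measured value but was written with earlier results of these data known, and all 9 were among the 14828 genes of the deposited expression table. The cells were 22Rv1, a human prostate carcinoma line, carrying a lentiviral pTRIPZ vector in which doxycycline switches on a short hairpin RNA (shRNA). The shRNA was either nontargeted (shNT) or 1 of 2 independent shRNAs against CENPA, the histone H3 variant that marks centromeres (shCENPA1 and shCENPA2). Cells were selected with puromycin, and by the study's methods they received doxycycline at 2 µg/ml for 72 h, so that all 3 groups shared vector, selection and drug. No library made without doxycycline was analysed here, and the sources do not say whether each line was a clone or a pool.

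A centriole is a small barrel of microtubules, and a pair of them at the heart of the centrosome organises the spindle poles of a dividing cell. Each centriole templates a single new one per cell cycle, beginning near the G1/S boundary: scaffold proteins place the kinase PLK4 on the wall of the parent, PLK4 phosphorylates STIL, and STIL with SASS6 builds the cartwheel from which the new barrel grows. The surrounding pericentriolar material then anchors microtubule nucleation, and a linker between the centrioles is dissolved on entry into mitosis. Too much or too little PLK4 changes centriole number, and extra centrosomes are a frequent feature of carcinomas, including those of the prostate.

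The values were log2 RPKM, that is, the logarithm of reads scaled to the length of the gene and the depth of the library. Each shRNA had 2 libraries, and each library was sequenced in lanes 7 and 8. The lanes of a library were averaged, since they differed by little more than read sampling (chi-square per gene of 1.24 to 1.31, against 26.5 to 80.1 between libraries of a group). The libraries held 79172294 to 133074655 reads on genes. Each member had at least 743 reads in every library, so that read counting did not limit the values of the members. Some other genes named had fewer: CENPA had 118 and 201 reads in the shCENPA2 libraries, and CCDC68 had 111 to 340 over all libraries. Whether the 2 libraries of a group came from separate cultures is not stated, and the p-values measure the spread between these libraries, which may be technical. CENPA itself, the target of the shRNAs, had a log2 RPKM of 2.46 and 2.18 with shNT, 0.50 and 0.58 with shCENPA1, and -0.47 and -0.41 with shCENPA2. It fell, at log2 fold changes of -1.78 and -2.76 (limma, Benjamini-Hochberg adjusted p = 0.000287 and 1.13e-05). All 10 luminal prostate markers looked for were in the table, with KLK3 and KLK2 lowest (log2 RPKM of -2.17 to -0.48 and -0.77 to 0.62). Of 13 markers of other cell types 5 were in the table (SYP, VIM, ACTA2, COL1A1 and CHGA), at a summed log2 RPKM of 4.88 to 4.93 with shNT, 4.90 to 5.10 with shCENPA1 and 4.75 to 4.84 with shCENPA2, and TP63, KRT5, KRT14, COL3A1, PECAM1, VWF, PTPRC and CD3E were not. Most of that sum was SYP, a neuroendocrine marker, at a log2 RPKM of 4.45 to 4.75 over the libraries, above KLK3, KLK2 and TMPRSS2 (1.04 to 2.19).

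In the GENCODE 44 annotation of GRCh38, PLK4 spans bases 127880893 to 127899224 of chromosome 4 (plus strand), STIL 47250139 to 47314892 of chromosome 1 (minus strand) and SASS6 100083563 to 100132955 of chromosome 1 (minus strand). CENPJ spans 24882279 to 24922889 of chromosome 13 (minus strand), CEP152 48712928 to 48811146 of chromosome 15 (minus strand) and CEP192 12991362 to 13125052 of chromosome 18 (plus strand). NEK2 spans 211658657 to 211675630 of chromosome 1 (minus strand), PCNT 46324124 to 46445769 of chromosome 21 (plus strand) and CDK5RAP2 120388875 to 120580170 of chromosome 9 (minus strand).

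The promoters of the members were read because many genes of the cell cycle are switched by the E2F factors, which act at G1/S, or by the DREAM and MuvB complexes, which use an element called CHR. RefSeq promoter windows (GRCh38.p14, from 250 bases before to 50 bases after a start site) were found for all 9 members, 12 windows in all. They were searched on both strands for the CHR words TTTGAA and TTCGAA and for the E2F words TTTCCCGC, TTTCGCGC, TTTGCCGC and TTTGGCGC, which do not overlap each other in the windows printed. A CHR word was in 4 of the 12 windows, 1 each of PLK4, CEP152, CEP192 and CDK5RAP2, and in 16.4% of all 35116 promoter windows. An E2F word was in 3 of the 12 windows, those of STIL, SASS6 and CEP192, and in 3.31% of all windows. CEP192 held both kinds (0.427% of all windows), and CENPJ, NEK2 and PCNT held neither. The windows below carry a word and belong to genes that license and build the cartwheel. CEP192 is shown as the recruiting scaffold that did not pass the test in either comparison. The window of CDK5RAP2, whose CHR word begins 44 bases after the start, is not printed. They run 5′ to 3′ on the strand of the gene, with the matched words in capitals: chr4:127880643-127880942 (plus) for PLK4, chr1:47314098-47314397 (minus) for STIL, chr1:100132881-100133180 (minus) for SASS6, chr15:48811020-48811319 (minus) for CEP152 and chr18:12991112-12991411 (plus) for CEP192.
PLK4: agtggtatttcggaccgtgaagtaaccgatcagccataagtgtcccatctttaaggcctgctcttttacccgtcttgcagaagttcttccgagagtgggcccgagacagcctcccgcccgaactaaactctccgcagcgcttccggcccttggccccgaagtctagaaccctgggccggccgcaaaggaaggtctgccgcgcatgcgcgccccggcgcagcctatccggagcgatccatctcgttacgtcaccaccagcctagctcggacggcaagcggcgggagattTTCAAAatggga
STIL: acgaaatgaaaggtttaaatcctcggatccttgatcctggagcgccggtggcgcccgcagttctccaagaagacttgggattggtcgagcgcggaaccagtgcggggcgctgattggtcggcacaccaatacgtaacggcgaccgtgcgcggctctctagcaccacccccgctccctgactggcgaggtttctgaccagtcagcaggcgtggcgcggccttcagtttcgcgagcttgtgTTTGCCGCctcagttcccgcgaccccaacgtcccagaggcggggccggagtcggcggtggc
SASS6: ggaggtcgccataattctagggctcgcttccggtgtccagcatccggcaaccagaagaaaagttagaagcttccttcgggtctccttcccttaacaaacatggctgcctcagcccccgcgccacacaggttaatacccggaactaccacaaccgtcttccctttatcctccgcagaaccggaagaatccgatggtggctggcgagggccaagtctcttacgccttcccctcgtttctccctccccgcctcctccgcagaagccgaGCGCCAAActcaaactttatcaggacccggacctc
CEP152: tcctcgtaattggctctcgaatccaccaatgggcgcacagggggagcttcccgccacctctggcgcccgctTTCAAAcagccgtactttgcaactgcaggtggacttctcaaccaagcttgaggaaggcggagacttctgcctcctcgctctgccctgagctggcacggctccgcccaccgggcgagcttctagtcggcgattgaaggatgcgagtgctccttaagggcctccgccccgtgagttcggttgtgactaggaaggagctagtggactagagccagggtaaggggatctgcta
CEP192: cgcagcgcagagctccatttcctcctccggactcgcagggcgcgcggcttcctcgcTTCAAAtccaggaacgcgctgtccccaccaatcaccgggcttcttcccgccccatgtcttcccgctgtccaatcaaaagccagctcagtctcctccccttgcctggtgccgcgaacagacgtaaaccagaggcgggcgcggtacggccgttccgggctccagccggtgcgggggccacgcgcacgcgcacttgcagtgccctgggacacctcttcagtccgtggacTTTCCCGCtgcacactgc
The CHR word of PLK4 begins 38 bases after the RefSeq start, and those of CEP152 and CEP192 begin 179 and 194 bases before it. The window of SASS6 also holds the start of its divergent neighbour TRMT13. Likewise, that of CEP192 holds the GENCODE start of its divergent transcript CEP192-DT, which lies within the CHR word. The E2F word of STIL begins 11 bases before the RefSeq start, that of SASS6 15 bases after it and that of CEP192 32 bases after it. The window of STIL does not reach the GENCODE start of that gene, base 47314892. A match is a run of letters and not a shown binding site, and its absence says only that these letters are not in the window.

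After CENPA depletion most of the 9 members had lower mRNA levels. With shCENPA1, 6 of the 9 members fell and none rose (limma, adjusted p under 0.05), where 4.45% of the 14624 genes tested fell and 2.69% rose, and the count was 3 without library 2 of shNT or library 2 of shCENPA1 and 4 without library 1 of shCENPA1. With shCENPA2, 7 of the 9 fell and none rose, where 10.5% of the genes tested fell and 8.05% rose, and the count was 4 without library 2 of shNT. NEK2, PLK4, STIL and CEP152 fell more than 2-fold with both shRNAs, as did 1.7% of all genes tested (1.83% with shCENPA1 and 4.45% with shCENPA2, each taken alone). Of these 4 members, 2 stayed past 2-fold without library 2 of shNT or library 2 of shCENPA1, and 1 did when 1 was added to the RPKM. The same 6 members, PLK4, STIL, SASS6, CENPJ, CEP152 and NEK2, fell with both shRNAs (4.13% of all genes tested), CDK5RAP2 fell with shCENPA2, and CEP192 and PCNT passed in neither. The median log2 fold change of the members was -0.73 with shCENPA1 and -0.82 with shCENPA2, beside 0.00 and 0.01 over all genes tested. In 8 of the 9 members all 4 knockdown libraries lay below both shNT libraries, as they did in 20.5% of all genes, and CEP192 was the exception. Both comparisons use the same shNT libraries and are therefore not independent of each other. In bulk RNA, fewer cells carrying a transcript and less of it per cell cannot be told apart. With 2 libraries on each side, the smallest two-sided p of an exact permutation test is 0.33, and the tests therefore come from the limma fit across all genes.

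**Figure D1:**
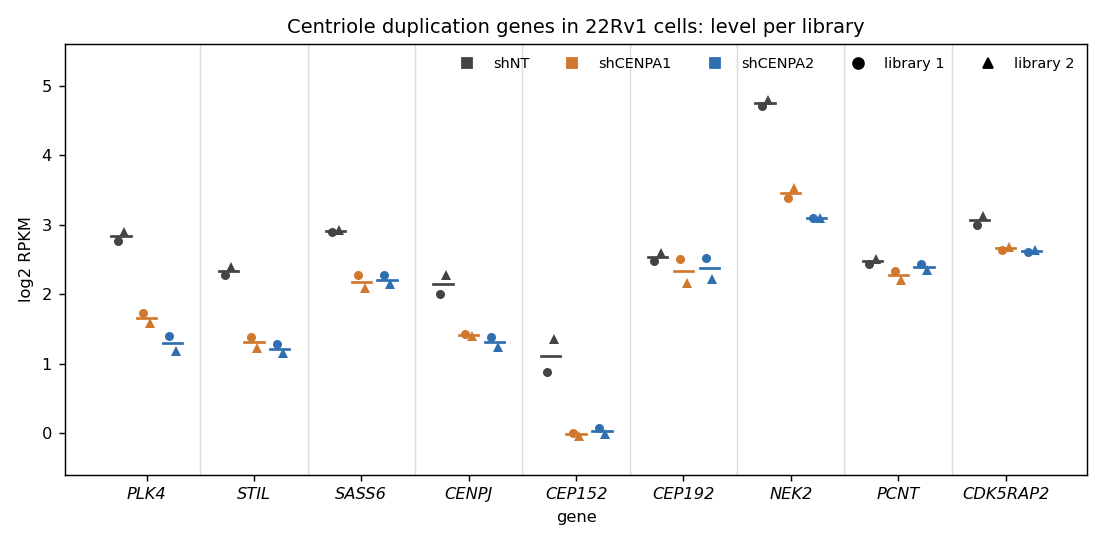
Log2 RPKM (vertical axis) of the 9 centriole duplication genes (horizontal axis) in each library, with circles for library 1, triangles for library 2 and a line at the mean of each group. The 4 knockdown libraries sit below both shNT libraries for every gene but CEP192, whose shCENPA1 and shCENPA2 values (2.16 to 2.52) overlap those of shNT (2.48 and 2.59).

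Of the 2 scaffolds that recruit PLK4 to the parent centriole, CEP152 fell and CEP192 did not pass; the difference between them was not tested. CEP192 binds PLK4 and also supports maturation of the centrosome before mitosis. Its log2 RPKM was 2.48 and 2.59 with shNT, 2.51 and 2.16 with shCENPA1, and 2.52 and 2.22 with shCENPA2. Library 1 of either knockdown was at the level of shNT and library 2 was below it, so the groups overlapped. The log2 fold change was -0.20 ± 0.15 (SE) with shCENPA1 (limma, adjusted p = 0.482, 95% confidence interval -0.55 to 0.14) and -0.16 ± 0.15 with shCENPA2 (adjusted p = 0.5, interval -0.51 to 0.18), and a fall past 2-fold lies outside both intervals. CEP152 surrounds the parent centriole and hands PLK4 over from CEP192 to the site of assembly. Its log2 RPKM was 0.88 and 1.35 with shNT, 0.00 and -0.04 with shCENPA1, and 0.07 and -0.01 with shCENPA2. The 4 knockdown libraries lay close together, and the shNT libraries were farther apart (SD 0.33) than those of any other member. CEP152 fell with both shRNAs, at log2 fold changes of -1.14 and -1.08 (SE 0.19, limma adjusted p = 0.00734 and 0.00439), to 54.5% and 52.8% lower RPKM. That call rested in part on the higher shNT library: without library 2 of shNT the log2 fold changes were -0.91 and -0.85 with adjusted p = 0.109 and 0.0669. Without library 1 or library 2 of shCENPA1 the adjusted p for that shRNA was 0.0586 and 0.085.

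PLK4, the kinase that licenses duplication, was among the most reduced members. Its log2 RPKM was 2.76 and 2.89 with shNT, 1.73 and 1.58 with shCENPA1, and 1.40 and 1.18 with shCENPA2. The 3 groups did not overlap, and the lowest values were those of shCENPA2, in which CENPA was also lowest. PLK4 fell with both shRNAs, at log2 fold changes of -1.17 ± 0.13 (SE) with shCENPA1 and -1.54 ± 0.13 with shCENPA2 (limma, adjusted p = 0.000904 and 7.83e-05), that is to 55.6% and 65.6% lower RPKM. Of all genes tested, 1.29% had a lower log2 fold change than PLK4 with shCENPA1 and 1.74% with shCENPA2. The calls held under all 19 alternative settings, with adjusted p values up to 0.0221 and 0.00132.

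Both cartwheel genes fell with both shRNAs. STIL, the substrate of PLK4 that brings SASS6 to the assembly site, had a log2 RPKM of 2.28 and 2.39 with shNT, 1.39 and 1.22 with shCENPA1, and 1.28 and 1.15 with shCENPA2. The knockdown libraries lay about 1 log2 unit below shNT and the 2 shRNAs overlapped. STIL fell, at log2 fold changes of -1.03 ± 0.14 and -1.13 ± 0.14 (SE; limma, adjusted p = 0.00178 and 0.000492), and both calls held under all 19 alternatives. For shCENPA1 the change fell short of 2-fold when library 2 of shNT (-0.98) or library 2 of shCENPA1 (-0.94) was left out. SASS6, which assembles into the hub of the cartwheel, had a log2 RPKM of 2.89 and 2.93 with shNT, 2.27 and 2.09 with shCENPA1, and 2.27 and 2.15 with shCENPA2. The shNT libraries lay close together and all knockdown libraries were lower. SASS6 also fell, at -0.73 ± 0.12 and -0.70 ± 0.12 (limma, adjusted p = 0.00531 and 0.00317), which is 39.7% and 38.3% lower RPKM. The shCENPA1 call was lost when library 2 of shNT (adjusted p = 0.0532) or library 2 of shCENPA1 (0.0529) was left out.

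CENPJ, also called CPAP, carries tubulin to the growing barrel and sets its length; despite its symbol it is a centriole protein and not a part of the centromere. Its log2 RPKM was 2.00 and 2.27 with shNT, 1.42 and 1.40 with shCENPA1, and 1.38 and 1.24 with shCENPA2. All knockdown libraries were lower than both shNT libraries, and the 2 shCENPA2 libraries were below the 2 of shCENPA1. CENPJ fell, at log2 fold changes of -0.72 ± 0.14 and -0.82 ± 0.14 (SE; limma, adjusted p = 0.0151 and 0.0036). Without library 2 of shNT the changes were -0.59 and -0.69 with adjusted p = 0.232 and 0.0555, and leaving out library 1 or library 2 of shCENPA1 gave 0.0719 and 0.108 for that shRNA.

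Of the pericentriolar genes, CDK5RAP2 fell with 1 of the shRNAs and PCNT passed with neither. PCNT, the large scaffold of the pericentriolar material, had a log2 RPKM of 2.44 and 2.50 with shNT, 2.33 and 2.21 with shCENPA1, and 2.43 and 2.35 with shCENPA2. Every knockdown library was below both shNT libraries, although library 1 of shCENPA2 was almost level with library 1 of shNT. The log2 fold change was -0.20 ± 0.11 (SE) and -0.08 ± 0.11 (limma, adjusted p = 0.342 and 0.674), with 95% confidence intervals of -0.45 to 0.05 and -0.33 to 0.17. CDK5RAP2, which binds PCNT and the gamma-tubulin ring complex that nucleates microtubules, had a log2 RPKM of 2.99 and 3.13 with shNT, 2.63 and 2.68 with shCENPA1, and 2.61 and 2.64 with shCENPA2. The 4 knockdown libraries lay close together and below shNT. CDK5RAP2 fell by 0.44 ± 0.10 with shCENPA2 (limma, adjusted p = 0.0181), and its log2 fold change of -0.40 ± 0.10 with shCENPA1 was just outside the threshold (adjusted p = 0.0504). Both values lay near the threshold. The adjusted p for shCENPA2 was 0.0769, 0.242 and 0.0502 without library 1 of shNT, library 2 of shNT and library 1 of shCENPA2, and that for shCENPA1 ranged from 0.00629 with each lane as a run to 0.54 over the 19 alternatives.

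NEK2, the kinase that dissolves the linker between centrioles as cells enter mitosis, had the lowest fold changes of the 9. Its log2 RPKM was 4.71 and 4.79 with shNT, 3.38 and 3.53 with shCENPA1, and 3.09 in both shCENPA2 libraries. The groups were apart by more than 1 log2 unit between control and knockdown, and the shCENPA2 libraries were also below those of shCENPA1. NEK2 fell, at log2 fold changes of -1.29 ± 0.10 and -1.66 ± 0.10 (SE; limma, adjusted p = 0.000112 and 1.01e-05), which is 59.2% and 68.3% lower RPKM. Of all genes tested, 0.821% and 1.27% had a lower log2 fold change. The calls held under all 19 alternatives.

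**Figure D2:**
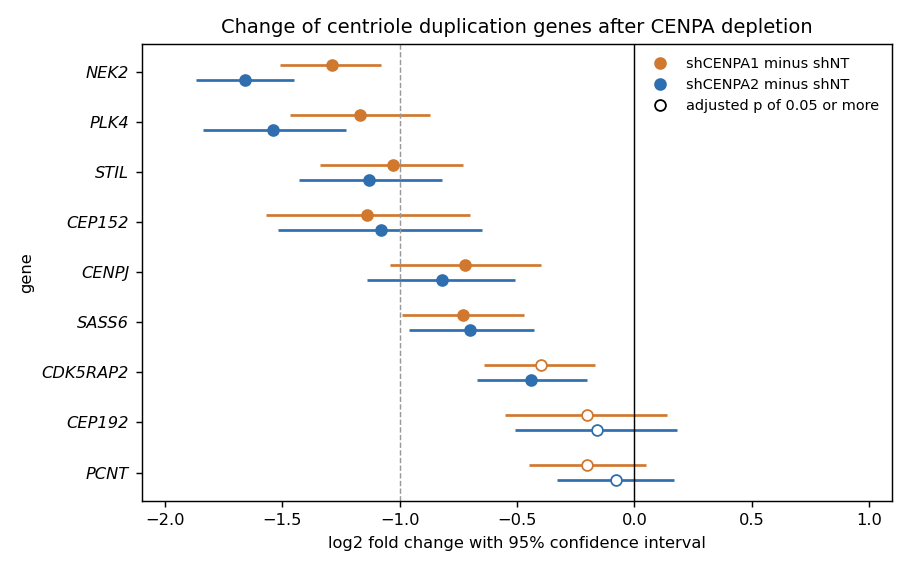
Log2 fold change against shNT (horizontal axis) for each gene (vertical axis) with its 95% confidence interval; filled points have an adjusted p under 0.05 and open points do not, and the dashed line marks a 2-fold fall. NEK2, PLK4, STIL and CEP152 lie beyond the dashed line with both shRNAs, and the intervals of CEP192 and PCNT include 0.

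The 2 CENPA shRNAs were compared with each other, since shCENPA2 left less CENPA mRNA. None of the 9 members passed (limma, adjusted p under 0.05), where 1.42% of all genes did, and 2 members, NEK2 and PLK4, had an unadjusted p under 0.05, as did 1945 of the 14624 genes tested. The log2 difference of shCENPA2 from shCENPA1 was -0.37 ± 0.10 (SE) for NEK2 (limma, adjusted p = 0.118, 95% confidence interval -0.58 to -0.15) and -0.37 ± 0.13 for PLK4 (adjusted p = 0.275, interval -0.67 to -0.06). The other 7 differences lay between -0.10 (CENPJ) and 0.12 (PCNT). Voom on the recovered reads also called 0 members, whereas counting each lane as a run of its own called 1, NEK2, at an adjusted p of 0.0127.

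The members started from different levels. With shNT, NEK2 had the highest level per gene length (26.9 RPKM), above CDK5RAP2 (8.34), SASS6 (7.52), PLK4 (7.09), CEP192 (5.81), PCNT (5.54), STIL (5.06), CENPJ (4.39) and CEP152 (2.17). NEK2 stood above 88.8% of the genes tested and CEP152 above 30.4%, and the other 7 were between 46.1% and 62.7%. SASS6 and PLK4, and likewise CEP192 and PCNT, overlapped in their shNT libraries and are not ordered beyond that spread. After depletion the order was different in its middle. The means of CEP192 and PCNT were above those of SASS6 and PLK4 with either CENPA shRNA, although the libraries of SASS6 overlapped those of CEP192 with both shRNAs and those of PCNT with shCENPA1, while NEK2, CDK5RAP2 and CEP152 kept the first, second and last place.

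The balance between members was followed within each library as the difference of 2 log2 RPKM values, for pairs picked after the values were seen and given with no test. PLK4 minus its scaffold CEP192 was 0.27 and 0.30 with shNT, -0.78 and -0.58 with shCENPA1, and -1.12 and -1.05 with shCENPA2. PLK4 was thus above CEP192 in both shNT libraries and below it in all 4 knockdown libraries. PLK4 minus CEP152, the other scaffold, was 1.88 and 1.55 with shNT, 1.73 and 1.63 with shCENPA1, and 1.33 and 1.19 with shCENPA2, and here shNT and shCENPA1 overlapped. SASS6 minus PLK4 went from 0.13 and 0.04 with shNT to 0.55 and 0.50 with shCENPA1 and to 0.87 and 0.98 with shCENPA2. SASS6 minus STIL, the 2 partners in the cartwheel, went from 0.61 and 0.54 to 0.88 and 0.87, and to 1.00 in both shCENPA2 libraries. NEK2 minus PCNT was 2.27 and 2.29 with shNT, 1.05 and 1.33 with shCENPA1, and 0.66 and 0.74 with shCENPA2. In all of these pairs but PLK4 with CEP152 the knockdown libraries lay apart from the shNT libraries.

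**Figure D3:**
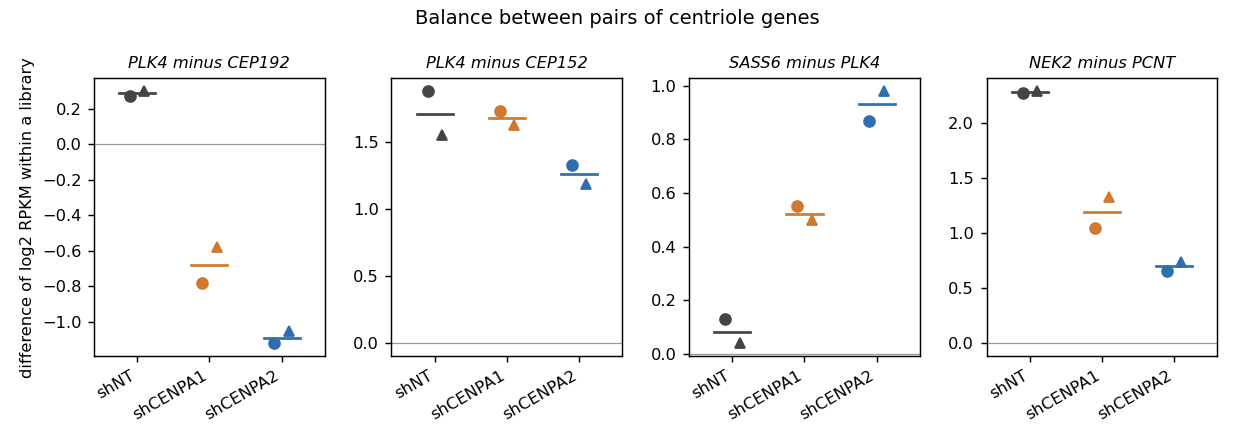
Difference of log2 RPKM between 2 genes within a library (vertical axis, a scale of its own in each panel) for each shRNA (horizontal axis), with circles for library 1, triangles for library 2 and lines at the group means. PLK4 minus CEP192 passes from above 0 with shNT to below 0 with both CENPA shRNAs, whereas the shNT and shCENPA1 values of PLK4 minus CEP152 overlap.

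The other genes of the centrosome were read as lists, beside the 4.45% (shCENPA1) and 10.5% (shCENPA2) of all genes tested that fell. Of 30 other centriole assembly factors, 2 fell and none rose with shCENPA1, at a median log2 fold change of -0.25, and 6 fell and none rose with shCENPA2, at a median of -0.22. POC1A, a protein of the centriole wall, fell at log2 fold changes of -0.96 and -1.11 (limma, adjusted p = 0.00214 and 0.000422). KIF24, a kinesin that restrains cilium formation at centrioles, fell by 1.00 with shCENPA1 and by 1.02 with shCENPA2, in log2 units (adjusted p = 0.0057 and 0.0023), and its shCENPA1 call was lost when library 1 of shNT or library 2 of shCENPA1 was left out (adjusted p up to 0.0607). The 4 others that fell with shCENPA2, named after their values were seen, were TEDC2 (listed as C16orf59, -1.22), CCP110 (-0.61), CEP135 (-0.52) and CEP57 (-0.40), which passed in 19, 17, 8 and 14 of the 19 alternatives. Without 1 library the list's counts were 1 to 4 with shCENPA1 and 3 to 6 with shCENPA2, with 3 when either shNT library was left out.

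Among 18 genes of ubiquitin control and of the response to centrosome loss, which includes the E3 ligases that destroy PLK4, STIL and SASS6, 3 fell and none rose with shCENPA1, and 2 fell and 1 rose with shCENPA2, at medians of -0.04 and -0.08; without library 1 or library 2 of shNT 1 gene fell with each shRNA and none rose. Over all genes tested, 4.45% fell and 2.69% rose with shCENPA1, and 10.5% fell and 8.05% rose with shCENPA2. CDC20, the activator of the anaphase-promoting complex, fell at log2 fold changes of -0.90 and -1.48 (limma, adjusted p = 0.00222 and 5.81e-05). CCNF, the F-box protein that limits the centriole cap protein CCP110, fell at -0.56 and -0.58 (adjusted p = 0.0337 and 0.014), and passed in 12 and 16 of the 19 alternatives, in neither comparison without library 1 or library 2 of shNT (adjusted p up to 0.242 and 0.099). The others that passed with 1 shRNA were named after their values were seen. USP28, a deubiquitinase of the response to centrosome loss, rose by 0.39 with shCENPA2 (limma, adjusted p = 0.0457), a call lost without any 1 of the shNT or shCENPA2 libraries (adjusted p up to 0.327), and with shCENPA1 its log2 fold change was 0.32 (adjusted p = 0.148). CDKN1A, an inhibitor of cyclin-dependent kinases, fell by 0.47 with shCENPA1 (adjusted p = 0.0307, and up to 0.216 without any 1 of the shNT or shCENPA1 libraries) and had a log2 fold change of -0.23 with shCENPA2 (adjusted p = 0.185).

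In the pericentriolar material, 29 of 30 listed genes were in the table, and 3 fell and none rose with shCENPA1 (median -0.26) and 10 fell and none rose with shCENPA2 (median -0.32), beside 4.45% and 10.5% of all genes tested. PLK1, the mitotic kinase that drives expansion of this material and a relative of PLK4, fell at log2 fold changes of -1.15 and -1.41 (limma, adjusted p = 0.000505 and 5.81e-05). AURKA, a kinase of the spindle poles, fell at -0.89 and -1.02 (adjusted p = 0.00081 and 0.000149). HAUS1, a subunit of augmin outside the naming rule, fell at -0.55 and -0.78 (adjusted p = 0.0166 and 0.00116), and with shCENPA1 it passed in 15 of 19 alternatives. Without library 1 or library 2 of shNT, 2 of the 29 fell with shCENPA1 and 5 with shCENPA2, and without library 1 or library 2 of shCENPA2, 6 fell with shCENPA1. Of 16 genes of the centriole linker and its regulators, 3 fell and none rose with shCENPA1 (median -0.13) and 4 fell and none rose with shCENPA2 (median -0.11). The members that fell with both shRNAs act in mitosis. They were KIF11, the motor that drives spindle poles apart (-1.30 and -1.72), PTTG1, the inhibitor of separase (-1.27 and -1.60), and ESPL1, separase itself, which is outside the naming rule (-1.17 and -1.36). LRRC45, from the same list and named after its value was seen, fell with shCENPA2 alone (-0.74, limma adjusted p = 0.0181). With shCENPA1 its log2 fold change was -0.52 (limma, adjusted p = 0.122). CEP250, the linker protein that NEK2 acts on and also chosen after the fact, had log2 fold changes of -0.11 and -0.17 (limma, adjusted p = 0.697 and 0.454).

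The appendages that mark an older centriole had 0 of 13 genes past the threshold with shCENPA1 and 2 with shCENPA2, both lower (4.45% and 10.5% of all genes tested fell), so that nothing is read from these counts about the list. The 2 were CEP128 (-0.79, limma adjusted p = 0.0308) and CCDC68 (-1.02, adjusted p = 0.041). Their log2 fold changes with shCENPA1 were -0.73 and -1.02, at adjusted p = 0.0791 and 0.0749. With library 1 or library 2 of shNT left out, 0 of the 13 passed in either comparison. In the families of the 2 member kinases, 12 other NEK and PLK genes were tested. PLK1 alone fell with either shRNA, and PLK2, which was higher by 0.54 with shCENPA2 (limma, adjusted p = 0.0154) and by 0.30 with shCENPA1 (adjusted p = 0.192), was the only one to rise, a call lost without library 2 of shNT (adjusted p = 0.179). The other NEK kinases had log2 fold changes of -0.81 to 0.16 with shCENPA1 and -0.49 to 0.14 with shCENPA2, and none passed. The shares over all genes tested were 4.45% lower and 2.69% higher with shCENPA1, and 10.5% lower and 8.05% higher with shCENPA2. Nothing is therefore read from these counts about the 2 families.

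Genes that mark dividing cells fell beside the members. Of 14 proliferation markers, 13 fell with each shRNA, at median log2 fold changes of -1.14 and -1.48. Over all genes tested, 4.45% fell and 2.69% rose with shCENPA1, and 10.5% fell and 8.05% rose with shCENPA2. MKI67, which encodes the Ki-67 antigen of cycling cells, fell at log2 fold changes of -1.40 and -1.66 (limma, adjusted p = 0.000311 and 4.47e-05), and TOP2A, the topoisomerase of mitotic chromosomes, fell at -1.34 and -1.71 (adjusted p = 9.21e-05 and 6.67e-06). CCNE1, a cyclin of the G1/S boundary, was the exception, with -0.13 and 0.17 (limma, adjusted p = 0.674 and 0.505). CCNE2, the other cyclin E of the list, fell at -0.97 and -1.38 (limma, adjusted p = 0.00137 and 7.87e-05). Of 20 genes of the E2F, DREAM and MuvB factors, 7 fell and none rose with shCENPA1 (median -0.29) and 8 fell and 1 rose with shCENPA2 (median -0.31), and without library 1 or library 2 of shCENPA1, 4 and 3 fell with shCENPA1. Both atypical E2F repressors fell, E2F8 at log2 fold changes of -1.53 and -1.88 and E2F7 at -1.44 and -1.63 (limma, adjusted p = 0.000696 and 8.21e-05, and 0.00441 and 0.00102), and E2F7 did not pass with shCENPA1 without library 2 of that shRNA (adjusted p = 0.0662). FOXM1 (-1.13 and -1.51), MYBL2 (-1.06 and -1.78) and E2F1 (-1.05 and -1.41) of the same list also fell with both shRNAs. So did LIN9 (-0.61 and -0.86) and RBL1 (-0.64 and -0.73), all named after their values were seen. The part of the proliferation markers and of these factors in the lower values of the members was not tested.

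**Figure D4:**
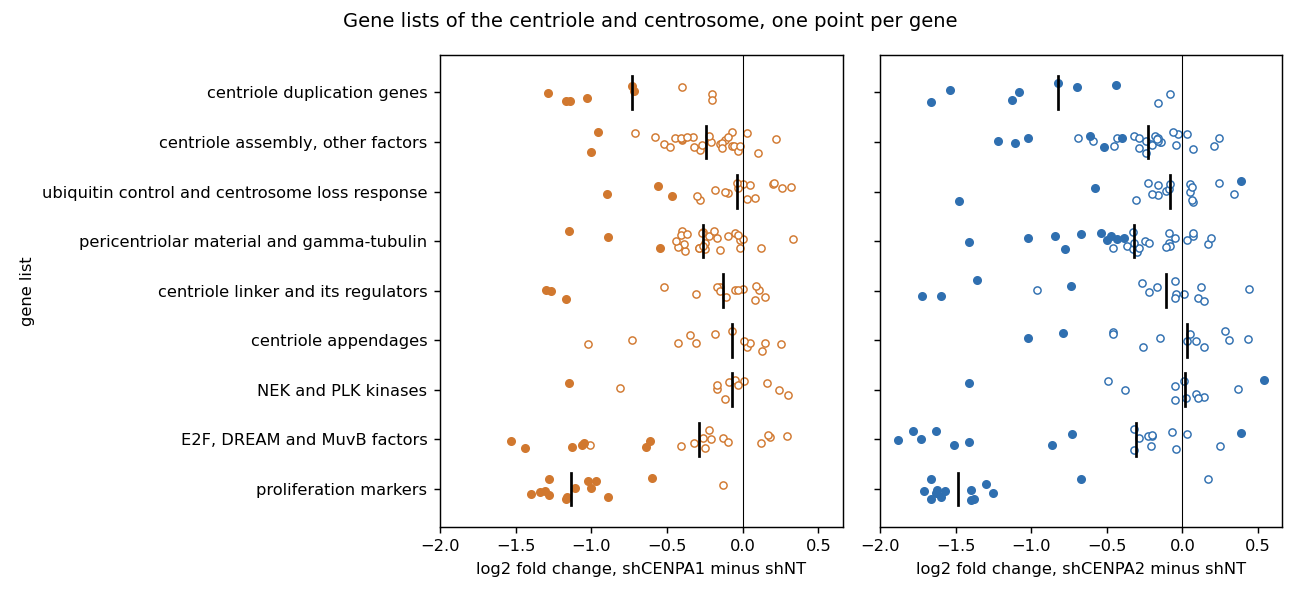
Log2 fold change against shNT (horizontal axis) of each gene in the member list and in 8 related lists (vertical axis), for shCENPA1 on the left and shCENPA2 on the right; filled points have an adjusted p under 0.05 and black bars are medians. The members have medians of -0.73 and -0.82, between those of the proliferation markers (-1.14 and -1.48) and those of the remaining lists (-0.29 to -0.04 and -0.32 to 0.03).

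Genes that start next to a member on the other strand were read as a local comparison. TRMT13, a tRNA methyltransferase whose start lies 195 bp from that of SASS6, had a log2 RPKM of 2.76 and 2.88 with shNT, 2.86 and 2.88 with shCENPA1, and 2.83 and 2.67 with shCENPA2. With either CENPA shRNA its libraries overlapped those of shNT, at log2 fold changes of 0.05 and -0.07 (limma, adjusted p = 0.815 and 0.717), beside -0.73 and -0.70 for SASS6. C21orf58, whose start lies 249 bp from that of PCNT, had a log2 RPKM of 1.45 and 1.47 with shNT, 0.83 and 0.89 with shCENPA1, and 0.97 and 0.79 with shCENPA2. It fell, at log2 fold changes of -0.60 and -0.58 (limma, adjusted p = 0.0372 and 0.0225), beside -0.20 and -0.08 for PCNT. The calls of C21orf58 held in 12 and 14 of the 19 alternatives and were lost, among others, without either shNT library, at an adjusted p of up to 0.323 and 0.178. The divergent transcripts of NEK2 and CEP192, and a transcript on the opposite strand that overlaps the start of CEP152, were not analysed here. Exons of other gene models share 292 bases with SASS6 and 204 with PCNT on the same strand, and 148 and 186 bases with CEP152 on the opposite strand, so that reads there cannot be assigned with certainty.

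The genes with the nearest profile to each member were found by the Euclidean distance of the log2 RPKM over the 6 libraries, after centring each gene on its mean. For PLK4 they were PRC1 (distance 0.0794), OAS3 (0.0988) and KIF23 (0.13), and for STIL they were MCM4 (0.0652), CLMN (0.111) and ATAD2 (0.123). For NEK2 they were KIF4A (0.0625), NDC80 (0.0748) and RAD51AP1 (0.0936). For SASS6 they were ADAMTS3 (0.0788), MAP3K5 (0.126) and SPDL1 (0.138), for CENPJ they were EZH2 (0.135), PAX8-AS1 (0.152) and AC004381.6 (0.175), and for CEP152 they were DNA2 (0.26), KNTC1 (0.27) and ZNF730 (0.279). The nearest to CEP192 were ZNF701 (0.0807), ATP10D (0.103) and MAP3K21 (0.107), to PCNT BBS7 (0.0505), ZBTB5 (0.0515) and EIF2AK3 (0.0558), and to CDK5RAP2 RP11-152N13.16 (0.0778), CLN6 (0.0924) and RP11-196G18.22 (0.0969). Among the members themselves, PLK4 was nearest to NEK2 (0.304), STIL to CEP152 (0.308), SASS6 to CENPJ (0.251) and CEP192 to PCNT (0.248).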

How the data were processed

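RNA was sequenced from stranded mRNA libraries of 22Rv1 cells (2 libraries for each of 3 shRNAs, 12 runs). The authors deposited log2 RPKM per gene and run; the submitters' processing notes name Trim Galore, STAR, HTSeq, edgeR and hg38, with versions and the strand setting of the counting not given in the sources used here. Whole reads, recovered from the steps between low values for 14828 of 14828 genes (largest distance from a whole number 4.9e-08, after a prior count of 0.25), gave the depths.

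Lanes were averaged and 1 limma fit (version 3.58.1, R 4.3.3, variance trend) covered the 3 groups and the 14624 genes left by a filter on low values (mean log2 RPKM not under -3). The study tested counts; the deposited values are logarithms, so limma was used. P-values were adjusted by Benjamini-Hochberg over all genes tested, with a threshold of 0.05, and a log2 fold change beyond 1 for 2-fold. The fit was tested on simulated reads with known changes, in which libraries vary independently, so that test does not cover libraries that share a source. Values after ± are SE or, where marked, SD. The members and gene lists were chosen with earlier results of these data known. Beyond the members, CENPA and PLK1, the genes named were the 2 lowest and 2 highest in mean change among those passing with both shRNAs in each list, the 3 nearest profiles and divergent neighbours within 1000 bp; all other genes named were chosen after their values were seen. Alternatives were other lanes, filters, added constants, scalings, variance models, voom on recovered reads and each library left out. Positions are from GENCODE 44 (88.1% of symbols matched), promoters from RefSeq.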

Additional observations from a re-analysis of the deposited data

How the results depend on the processing

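PLK4, STIL and NEK2 kept an adjusted p under 0.05 with both shRNAs in all 19 alternatives. Leaving out 1 library moved the number of members that fell with shCENPA1 from 6 to between 3 and 7, with 3 without library 2 of shNT or library 2 of shCENPA1, and with shCENPA2 from 7 to between 4 and 7, with 4 without library 2 of shNT; an arm left with 1 library is assumed to vary like the others. The members past 2-fold with both shRNAs, 4 in all, ranged from 2 to 4 without 1 library (2 without library 2 of shNT or of shCENPA1), and 1 was left when 1 was added to the RPKM, which shrinks changes of low genes. With lanes as separate runs, 1 member differed between the CENPA shRNAs in place of 0. The difference of shCENPA2 from shCENPA1 reversed for SASS6 to -0.02 in lane 8 alone, -0.06 without library 2 of shCENPA1 and -0.03 without library 1 of shCENPA2 (highest without a library, 0.13), and for CEP192 to -0.14 and -0.11 without the same libraries (highest 0.22); none of these was called, and the cause was not tested. With the library number as a replicate block, 6, 7, 0 and 4 members were called as before, and 868, 2375 and 160 genes in all in place of 1044, 2712 and 208; deviations of same-numbered libraries correlated at -0.0641, -0.0952 and -0.145, which does not show that the numbers pair them. A block with crossed numbers, added after seeing the data, was fitted to the shCENPA1 and shCENPA2 libraries alone. Between the CENPA shRNAs it called 757 genes and 0 members, where a fit of the same libraries without a block called 245 genes. Whether opposite numbers share a source was not tested. With 2 libraries in each group, the small differences of CEP192 and PCNT could not be told from the spread.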
